A study of Mus musculus with 4 samples.

Results

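Foxo1 was precipitated with its DNA from regulatory T cells of the mouse, labelled nTreg, along 2 routes, and the DNA was sequenced. The 2 lists of enriched intervals (peaks) were compared, and the peaks described here are those that the streptavidin route called where the antibody route called nothing. The autosomes 1 to 19 were divided into fixed windows of 1 Mb counted from position 0. A streptavidin peak was taken when its centre lay in a window with no antibody peak centre. This gave 3030 peaks, or 5.31% of the 57096 autosomal streptavidin peaks (57748 with the sex chromosomes). The members were thus chosen from the positions of both peak lists, and those positions are described here without a test.

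The antibody library was precipitated with an anti-Foxo1 antibody from nTreg cells of wild-type B6 mice. The streptavidin library came from nTreg cells of Foxo1tagBirA mice, whose own Foxo1 is biotinylated. The groups therefore differ in genotype as well as in capture, and the effects of the genotype and of the capture cannot be told apart. Each route also has an input library, of which no values were analysed. The age of the mice, and whether animals were pooled, are not given in the sources used here. There was 1 library per group, so no replicate error exists and no p-value is given. Read depth is unknown, because the lists hold no read counts. Shares of peaks carry exact 95% Clopper-Pearson intervals, which reflect counting error alone, and neighbouring peaks are not independent.

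Foxo1 is a forkhead transcription factor. Akt phosphorylates it when PI3K signalling is active, and the phosphorylated protein leaves the nucleus. In T cells it is known for sustaining genes of quiescence, survival and lymph node homing, and in regulatory T cells it is needed for their suppressive function. BirA is a bacterial ligase that attaches biotin to a short peptide tag, and streptavidin binds biotin almost irreversibly. Cells also carry enzymes that are biotinylated naturally. Whether any peak described here is a site occupied by Foxo1 was not tested. The lists use the mouse build mm9, and with no mm9 genome or annotation used here the peaks are given by position, without gene names or sequence.

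Windows without antibody peaks were not empty of streptavidin peaks, but held fewer of them than other windows. Of 2419 autosomal windows between the outermost peaks, 307 (12.7%) had no antibody peak, and 273 of these held at least 1 streptavidin peak. Per window without antibody peaks the median was 9 streptavidin peaks (quartiles 5 and 14, range 0 to 32). Over the 273 windows with members it was 10 (quartiles 7 and 15). The median over all autosomal windows was 24 (quartiles 15 and 32). The next step up, the 288 windows with a single antibody peak, had a median of 14 (quartiles 10 and 19), and the 105 windows with 21 to 58 antibody peaks had a median of 36 (quartiles 32 and 41). The ranges of neighbouring classes overlapped widely.

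**Figure D1:**
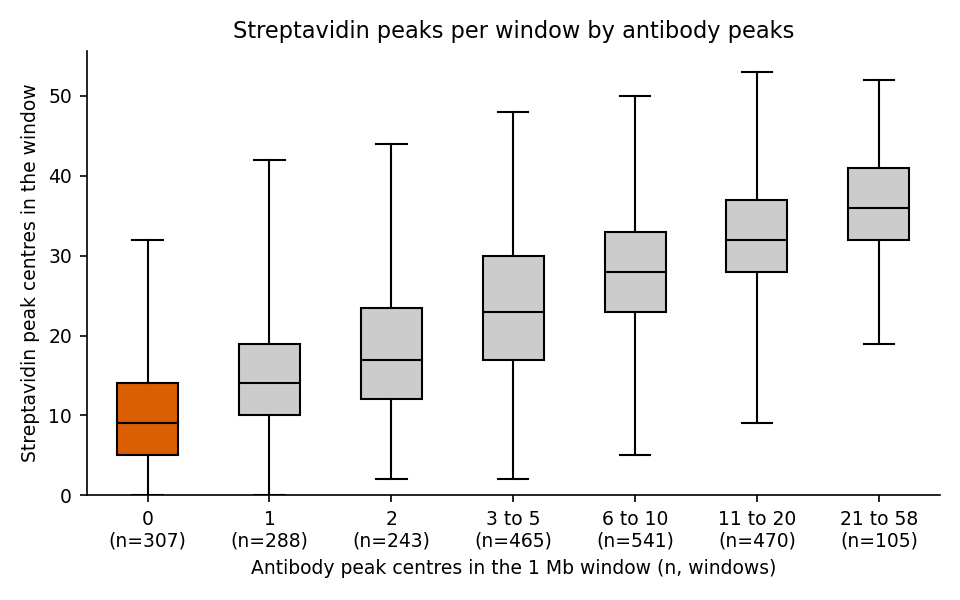
Number of streptavidin peak centres per 1 Mb autosomal window (y axis) for windows grouped by their number of antibody peak centres (x axis, with the number of windows). Boxes span the quartiles, lines mark the median and whiskers the lowest and highest window; the median is 9 in windows without antibody peaks and 36 in those with 21 to 58.

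Read the other way, the absence of antibody peaks became rarer as streptavidin peaks became denser. Among the 206 windows with 5 to 9 streptavidin peaks, 91 had no antibody peak (44.2%, interval 37.3 to 51.2). The share was 27.6% (22.6 to 33.1) of the 293 windows with 10 to 14 streptavidin peaks and 15.8% (11.8 to 20.4) of the 298 windows with 15 to 19. It was 4.86% (2.91 to 7.58) of the 370 windows with 20 to 24. Among the 816 windows with 30 or more streptavidin peaks only 2 had no antibody peak (0.245%). The 22 windows that held 20 or more streptavidin peaks and no antibody peak contributed 513 of the 3030 members.

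The members were spread over all 19 autosomes, at unequal shares. Chromosome 4 held 284 members, chromosome 1 held 279, chromosome 3 held 272, chromosome 5 held 240 and chromosome 16 held 221. Together these 5 chromosomes had 42.8% of the members against 30.1% of the autosomal streptavidin peaks. As a share of a chromosome's own streptavidin peaks, the members were most frequent on chromosome 16, at 10.5% (9.23 to 11.9), followed by chromosome 3 at 7.98% and chromosome 4 at 7.97%. They were least frequent on chromosome 19, at 1.99% (1.37 to 2.80), with 32 members in 3 windows. Chromosome 11 had 2.49% (1.99 to 3.08) and chromosome 9 had 2.68% (2.15 to 3.29). Chromosome 7 had the highest share of windows without antibody peaks, 33 of 150 (22.0%), yet a member share of 5.40% (4.66 to 6.23). On that chromosome 14 of the windows without antibody peaks held no streptavidin peak either.

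**Figure D2:**
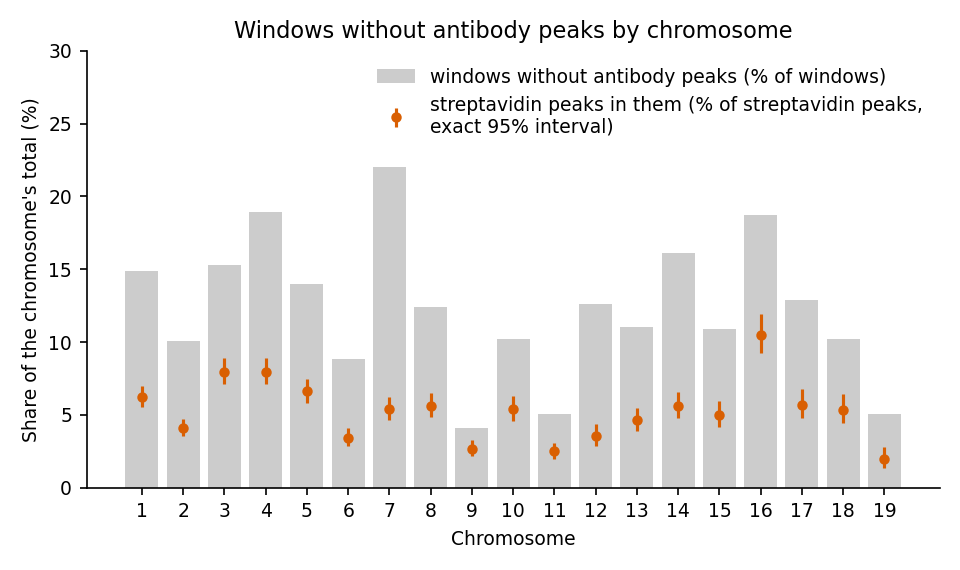
For each autosome (x axis), the share of its 1 Mb windows without antibody peaks (grey bars, %) and the share of its streptavidin peaks that lie in them (orange points with exact 95% intervals, %). Chromosome 16 has the highest share of peaks, 10.5%, and chromosome 19 the lowest, 1.99%.

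Windows without antibody peaks occurred both singly and side by side. The 307 windows formed 211 runs of adjoining windows. Of these runs 144 were single windows, with 1719 members. The other 67 runs, of 2 to 7 windows, took up 163 windows and held 1311 members. Single windows held 11.9 members on average and windows in longer runs 8.04. These averages include the 34 windows with no peak of either list. Of those, 22 lay in stretches of 3 or more and so in longer runs, which lowers the second average. Averages over the windows with members alone were not split by run. The 358 windows with antibody peaks that bordered a window with members were themselves thinly covered. They had a median of 2 antibody and 16 streptavidin peaks, against 6 and 26 over all windows with an antibody peak.

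The longest runs differed in whether streptavidin peaks were present. The longest, chr7:39000001-46000000, covered 7 windows without a peak of either list. The next, chr7:8000001-13000000, had 7 members in 5 windows, all in the last 2. A run of 4 windows at chr1:110000001-114000000 held 36 members, with 8, 14, 6 and 8 per window. At chr2:85000001-89000000 there were 28 members, with 12, 3, 6 and 7 per window. At chr3:70000001-74000000 there were 47, with 18, 9, 8 and 12. In the last 3 of these runs every window without antibody peaks thus still held streptavidin peaks.

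The distances to antibody peaks were long. The median distance from a member to the nearest antibody peak centre was 666 kb (quartiles 426 and 948 kb). The other autosomal streptavidin peaks had a median of 46.4 kb (quartiles 14.2 and 118 kb). Both follow in part from the rule, and the distance that the rule alone would give was not computed. Of the members 2045 (67.5%) were at least 500 kb from any antibody centre, against a background of 5.19% of all autosomal streptavidin peaks; as the antibody positions chose the members, this share is a description. A further 921 streptavidin peaks at that distance lay in windows that did hold an antibody peak, so 68.9% of all such distant peaks were members. Only 53 members were within 100 kb of an antibody centre.

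**Figure D3:**
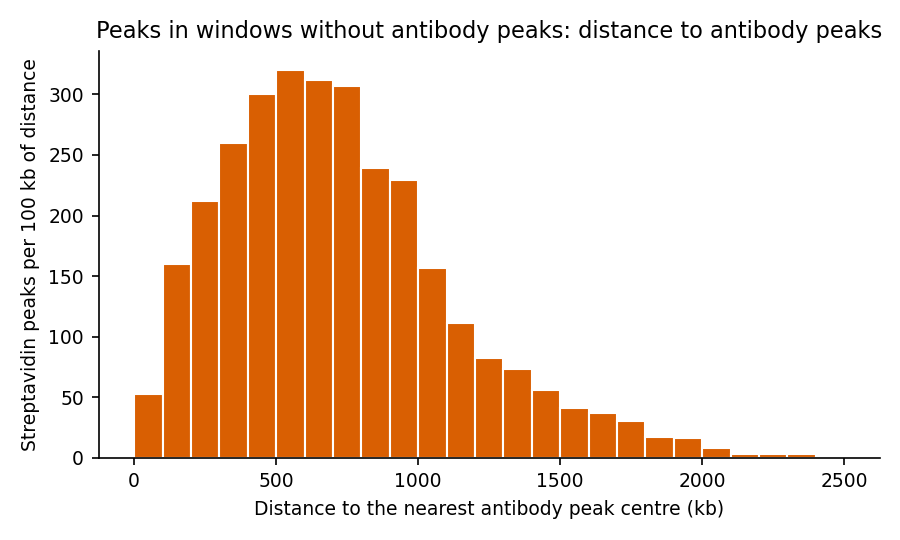
Number of members per 100 kb of distance (y axis) by the distance from the member's centre to the nearest antibody peak centre in kb (x axis). The fullest bin is 500 to 600 kb, with 320 members, and 53 members lie under 100 kb.

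The members at the edge of the rule were next to a window border. The member nearest to an antibody peak was chr13:4010109-4010252, with a score of 107, 11.7 kb from the antibody peak chr13:3998231-3998638. It was followed by chr8:39006560-39006794, with a score of 66.9, at 15.0 kb, and by chr12:65997715-65997927, with a score of 72.5, at 21.02 kb. The antibody peak across the border from the last of these, chr12:66018666-66019013, had a score of 1613 in its own list, so a strong antibody peak can lie just outside a window counted as empty. The next were chr4:143013157-143013372 (score 85.2, 21.5 kb) and chr7:101012619-101012852 (score 74.5, 28.3 kb). No member overlapped an antibody peak, against a background of 6.19%. None overlapped an interval of the third deposited list, which is named for both methods, against a background of 6.27%. The first of these zeros follows from the distances. The second is all but fixed by the rule, since 3536 of the 3579 autosomal streptavidin peaks that met the third list also overlapped an antibody peak.

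The farthest members lay in the 4-window runs of chromosomes 1 and 3. The member chr1:112372160-112372391 was 2410 kb from an antibody centre and had a score of 75.1, and chr1:112333652-112333873 was 2372 kb away with a score of 70.1. On chromosome 3 the distances were 2363 kb for chr3:72491047-72491287 (score 65.4), 2336 kb for chr3:72517820-72518108 (score 116) and 2289 kb for chr3:71980001-71980225 (score 76.0). Of these scores only the fourth lay above the members' upper quartile, given next.

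The members' scores were not low for the streptavidin list. The score is a value that the peak caller assigned, higher for stronger calls, and is compared here only within the streptavidin list. The median over members was 76.4 (quartiles 68.5 and 92.5), against 74.5 (65.5 and 91.9) over the other autosomal streptavidin peaks. Of the members 553 (18.3%, interval 16.9 to 19.7) reached a score of 100, against a background of 18.2% of all autosomal streptavidin peaks, a share near the background. Among the other streptavidin peaks that overlapped no antibody peak it was 16.1% (15.8 to 16.4), below the members' interval, and among the unshared peaks of windows with 7 to 15 streptavidin peaks it was 17.8% (16.6 to 19.1). The lower end was slightly raised. The lower quartile was 68.5 in windows without antibody peaks, 67.6 with a single one, 65.4 with 6 to 10 and 62.3 with 21 to 58. In windows with 7 to 15 streptavidin peaks it was 69.1 for members and 68.1 for the unshared peaks, so less of the difference remained.

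Scores of 200 or more were rare among members. A score of 150 was reached by 63 members (2.08%, 1.60 to 2.65), against a background of 3.25%. At that score the share was 1.69% (1.58 to 1.81) among other peaks that overlapped no antibody peak and 1.92% (1.51 to 2.41) among those of windows with 7 to 15 streptavidin peaks, both a little under the members' share, with overlapping intervals. Only 5 members (0.165%, 0.0536 to 0.385) reached 200, against a background of 1.23%. The share at 200 or more was 0.275% in windows with a single antibody peak, 1.10% in those with 6 to 10 and 3.23% in those with 21 to 58. Peaks that both methods called made up most of the high scores elsewhere. Of the 3536 autosomal streptavidin peaks that overlapped an antibody peak, 590 (16.7%) reached 200. Of the 50530 that lay in windows with antibody peaks but overlapped none, 109 (0.216%, 0.177 to 0.260) did, a share within the members' interval. The highest member score was 330.4, against 2748 in the rest of the list.

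**Figure D4:**
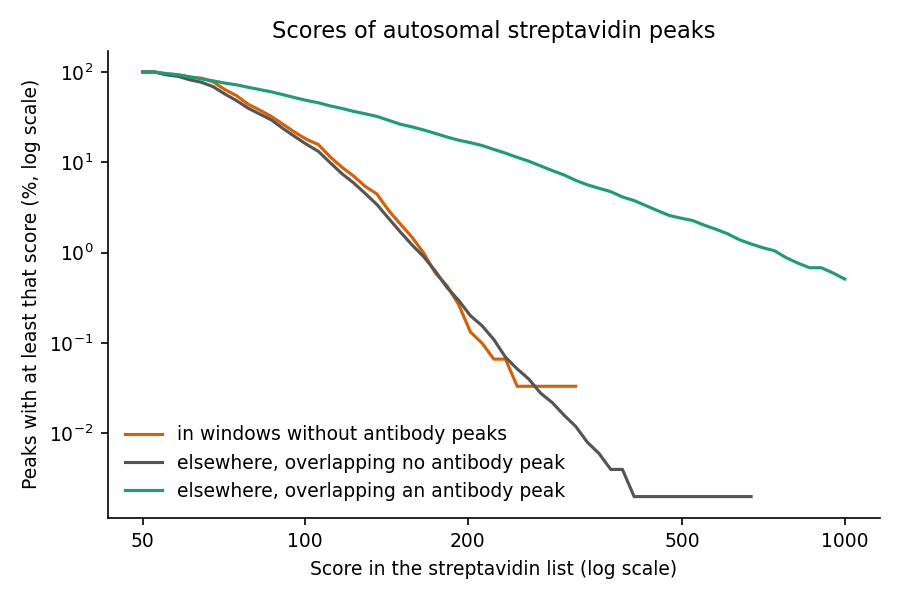
Share of peaks with at least a given score (y axis, %, log scale) against the score in the streptavidin list (x axis, log scale) for members (orange), other autosomal streptavidin peaks that overlap no antibody peak (grey) and those that overlap one (green). At a score of 200 the shares are 0.165%, 0.216% and 16.7%.

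Median scores varied little with the distance to antibody peaks or the number of members per window, and ranged more widely between chromosomes. By distance to the nearest antibody centre, the median score was 76.4 for the 326 members under 250 kb, 74.5 for the 659 at 250 to 500 kb, 76.7 for the 1407 at 500 to 1000 kb and 76.7 for the 638 farther away. By window, it was 76.8 where 1 to 4 members shared the window and 73.9 where 20 to 32 did. Between chromosomes the median ranged from 73.9 on chromosome 17 (127 members) to 81.4 on chromosome 12 (93 members). The share with a score of at least 100 ranged from 12.3% on chromosome 14 (146 members) to 24.3% on chromosome 3 (272 members). Every chromosome held fewer members than any distance class, and chromosomes are more numerous. Their wider range is a description only.

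Members were spaced more widely than other streptavidin peaks, with a smaller difference in windows of similar streptavidin counts. The nearest other streptavidin centre was a median of 25.5 kb away, against 11.8 kb for the other autosomal peaks. Another centre lay within 10 kb of 752 members (24.8%, 23.3 to 26.4), against a background of 43.7%. Windows with 7 to 15 streptavidin peaks, the quartiles of the windows with members, allow a comparison at similar density. Within them 20.3% (18.3 to 22.3) of 1613 members and 23.8% (22.5 to 25.2) of 3930 other streptavidin peaks had another centre within 10 kb, and the median distances to the nearest centre were 31.6 and 26.2 kb. Among the 3804 of those others that overlapped no antibody peak the share was 22.9% (21.6 to 24.3), an interval that overlaps the members'. Within this range of counts, windows without antibody peaks lay more often at the sparse end, so density was matched only in part. The median score there was 76.7 for members and 76.5 for the others, and the share with a score of at least 100 was 18.4% (16.5 to 20.3) and 19.2% (17.9 to 20.4). At similar streptavidin density, members and the other peaks thus differed little in score. The share with a score of 200 or more was 0.124% (0.015 to 0.447) and 1.02% (0.728 to 1.38). Leaving out the 126 peaks of those windows that overlapped an antibody peak changed the second share to 0.237% (0.108 to 0.449).

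Wide peaks were also uncommon among members. The median width was 218 bases (quartiles 192 and 235, range 106 to 459), against 221 (194 and 239) for the other autosomal peaks. Only 73 members (2.41%, 1.89 to 3.02) were wider than 300 bases, against a background of 6.81%. Among peaks elsewhere that overlapped no antibody peak the share was 4.36% (4.18 to 4.54), and among those that overlapped one it was 45.7% (44.1 to 47.4). Among streptavidin peaks of windows with a single antibody peak it was 3.14% (2.64 to 3.70), an interval that overlaps the members'. In windows of similar streptavidin counts compared above the share was 2.11% (1.46 to 2.93) for members and 3.42% (2.86 to 4.04) for unshared peaks. These intervals also overlapped, and the difference was smaller than against the background. A further 182 members (6.01%, 5.19 to 6.91) were narrower than 150 bases, against a background of 4.68%. Among streptavidin peaks of windows with a single antibody peak the narrow share was 5.31% (4.66 to 6.02). In windows of similar streptavidin counts it was 5.46% (4.40 to 6.68) for members and 5.13% (4.45 to 5.88) for unshared peaks. The members' intervals overlapped those of the other peaks in both comparisons.

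Score and width were tied together among the members, and in the opposite sense to peaks called by both methods. The median width of members was 225 bases at scores of 60 to 75 and 192.5 bases at scores of 100 to 150. It was 212 bases over the 63 members at 150 or more, so the decrease did not continue. For streptavidin peaks overlapping an antibody peak it was 240 bases at scores of 60 to 75 and 312 bases at 100 to 150. Spearman's rho between score and width was -0.28 over the 3030 members, -0.13 over the 50530 unshared peaks elsewhere and 0.55 over the 3536 peaks that overlapped an antibody peak. Over the unshared peaks of windows with 7 to 15 streptavidin peaks it was -0.22, closer to the members' value. These coefficients are across peaks of 1 library, given as a description. Of the 63 members with a score of at least 150, 19 (30.2%) were narrower than 150 bases. That share was 28.6% among the 856 such unshared peaks elsewhere and 0.428% among the 934 that overlapped an antibody peak.

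Many members took exactly the same values. The 3030 members had 964 distinct scores, and 2801 members (92.4%, 91.4 to 93.4) had both the score and the width of another autosomal streptavidin peak, against a background of 77.7%. The share was 80.6% (80.3 to 81.0) among unshared peaks elsewhere and 23.8% (22.4 to 25.3) among those overlapping an antibody peak. In windows with 7 to 15 streptavidin peaks it was 94.0% (92.7 to 95.1) for members and 90.6% (89.6 to 91.5) for unshared peaks in windows with antibody peaks. At similar streptavidin density the shares of members and other unshared peaks were thus closer together, but their intervals did not overlap. The cause of the repeated values was not tested.

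The 6 scores most repeated among the members differed in how they compared with the rest of the list. The most repeated, 53.1, was taken by 150 members (4.95%, 4.21 to 5.78) and by 4.62% (4.45 to 4.80) of the other autosomal peaks. The score 69.06 was taken by 135 members (4.46%, 3.75 to 5.25) against 2.83% (2.69 to 2.98) of the others. The score 59.46 was taken by 65 members (2.15%, 1.66 to 2.73) against 2.10% (1.98 to 2.22), and the score 72.87 by 40 members (1.32%, 0.945 to 1.79) against 1.28% (1.18 to 1.37). The score 76.65 was taken by 63 members (2.08%, 1.60 to 2.65) against 1.28% (1.19 to 1.38). The score 107.06 was taken by 39 members (1.29%, 0.917 to 1.76) against 0.499% (0.442 to 0.562). The widths of those 39 members were between 139 and 161 bases, with a median of 154. The intervals of members and others overlapped for 53.1, 59.46 and 72.87 and did not for 69.06, 76.65 and 107.06. The others include peaks that overlap an antibody peak and peaks of denser windows. No comparison at similar streptavidin density was made for single scores. These 6 scores were chosen after the values were seen.

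**Figure D5:**
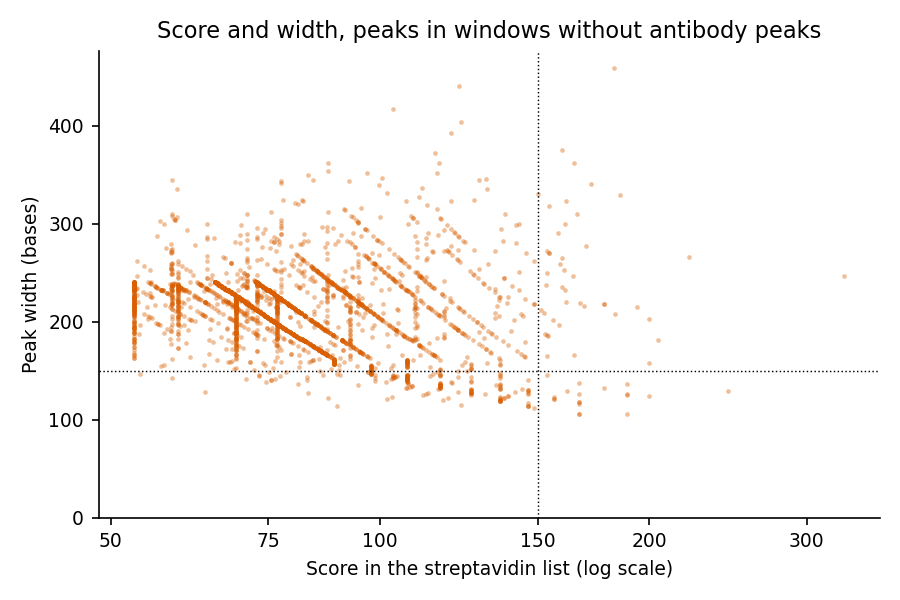
Width in bases (y axis) against score in the streptavidin list (x axis, log scale) of each of the 3030 members, with dotted lines at 150 on both axes. Points fall on slanting and vertical bands of repeated values, and 19 of the 63 members with a score of at least 150 are narrower than 150 bases.

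The 15 highest-scoring members lay on 11 chromosomes and 148 to 1248 kb from the nearest antibody centre. The first was chr9:95855044-95855290, with a score of 330.4, a width of 247 bases and an antibody centre 165 kb away. Next was chr7:102175784-102175912, with a score of 245 over only 129 bases and the nearest antibody centre 980 kb away. A second member from the same window of chromosome 9, chr9:95412284-95412549, scored 222. The remaining members above 200 were chr2:114480569-114480749 (score 204, antibody centre 510 kb away) and chr8:68401166-68401368 (score 200.1, 775 kb away).

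Below 200, equal scores recurred. The members chr7:84322730-84322853 and chr10:51516614-51516771 both scored 199.63, and chr5:132913514-132913728 scored 194, with the nearest antibody centre 1173 kb away. A score of exactly 188.63 was shared by 4 members. They were chr4:31958302-31958438, chr9:95871469-95871594, chr11:14180092-14180216 and chr11:66579054-66579159, all between 106 and 137 bases wide. These were 0.132% (0.0360 to 0.338) of the members. Of the 54066 other autosomal peaks 9 had that score (0.0166%, 0.00761 to 0.0316), with a median width of 117 bases. This score was picked from the highest scores of the members, so the 2 shares are a description. The list of 15 ended with chr3:114150789-114151117 (score 185, 329 bases wide), chr12:61148894-61149101 (score 183) and chr14:81953222-81953680. The last scored 183 and was, at 459 bases, the widest of all members. Of the 15, 6 were narrower than 150 bases and 2 were wider than 300.

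The windows richest in members had streptavidin densities above the median of all windows or equal to it. The window chr9:95000001-96000000 held 32 streptavidin peaks and no antibody peak, between a window with 4 antibody and 30 streptavidin peaks and one with 19 and 33. Its scores ran from 53.1 to 330.4 with a median of 76.7, and 10 of the 32 reached 100 (31.2%). It also held 5 of the 63 members with a score of at least 150. The window chr5:132000001-133000000 held 30 members with a median score of 68.9, of which 2 reached 100, and the adjoining window had no antibody peak either and 22 members. This run of 2 windows, with 52 members, was the fullest of all runs.

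Further windows of this kind were chr16:25000001-26000000 with 28 members, chr7:131000001-132000000 with 26 and chr1:77000001-78000000 with 24. Their median scores were 71.5, 71.7 and 70.0, and their highest 126, 142 and 136. The chromosome 7 window stood between windows with 10 and 16 antibody peaks. The chromosome 1 window followed another window without antibody peaks, and its members were 526 to 1437 kb from an antibody centre.

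Windows just outside the rule, with a single antibody peak, reached higher streptavidin counts. The fullest were chr19:48000001-49000000 with 42 streptavidin peaks, chr11:89000001-90000000 with 39, chr11:8000001-9000000 and chr15:87000001-88000000 with 38 each, and chr8:95000001-96000000 with 37. In none of these 5 windows did the single antibody peak overlap a streptavidin peak. Their median scores, 71.0 to 74.8, fell within the range of those in the 5 fullest windows without antibody peaks, 68.9 to 76.7. Over all 288 windows with a single antibody peak, 16 of 4368 streptavidin peaks overlapped it (0.366%).

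The densest stretches of 100 kb held 8 members each. They are the highest counts among the members, with no such count for the other streptavidin peaks beside them, so they do not show clustering. They lay at chr7:84094400-84193817, chr9:95378991-95473438, chr11:9170043-9228421 and chr18:20168267-20258494, with the nearest antibody centres 338, 396, 331 and 796 kb away. Their median scores were 70.8, 78.1, 83.2 and 79.3. The chromosome 11 stretch was the tightest, with its 8 peaks in 58.4 kb. Only 66 members (2.18%, 1.69 to 2.76) had another streptavidin centre within 1 kb, against a background of 5.98%. In windows of similar streptavidin counts compared above the share was 2.11% (1.46 to 2.93) for members and 2.73% (2.24 to 3.30) for unshared peaks. These intervals overlapped, and the difference was smaller than against the background.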

How the data were processed

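The submitters' processing notes name MACS 1.4, Bowtie 0.12.7, CASAVA 1.4 and build mm9; roles, settings, the control used and any pooling are not given in the sources used here. The deposited antibody and streptavidin lists give a position and a score per peak, and both are named for a false discovery rate of 0.01. The score is undefined in the files and was taken as the authors' own value, within 1 list only. The third deposited list gives positions only.

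Positions are printed in mm9, counted from 1, and centres are the means of start and end. Windows run from the first to the last holding a peak of either list, and those at chromosome ends may be partly covered. Overlap means at least 1 shared base. Python 3.11.15, NumPy 2.4.6, SciPy 1.17.1 and pandas 2.3.3 were used. Counting was tested on 20 made-up lists, in all of which the members were recovered, and overlaps equalled those of bedtools 2.31.1.

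The members, named regions and lists were chosen with earlier results of these data known. Named regions are the 15 highest-scoring members, and 5 each of the fullest windows, longest runs, nearest and farthest members and fullest windows with 1 antibody peak. The comparison at similar density, the repeated scores, the densest stretches, the neighbouring windows and the fullest run were added after the values were seen. Genes, motifs and base composition were not analysed here.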

Additional observations from a re-analysis of the deposited data

How the results depend on the processing

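Each of 8 results was recomputed under up to 7 alternatives, which gave 55 values. Of these, 33 stayed within the main interval, or within 1.5 times the main count, and 22 moved. With windows shifted by 500 kb there were 2941 members and no result moved. Windows of 500 kb gave 7811 members, a median of 6 per window, a median distance of 411 kb and 29.2% with another streptavidin centre within 10 kb. Windows of 2 Mb gave 765 members, 16 per window, 1046 kb and 22.1%. Smaller windows are more often empty by construction. Counting only antibody peaks with a score of at least 200 gave 12027 members, 14 per window and a median score of 75.6. Of these members 33.8% were within 10 kb of another streptavidin centre and 0.715% overlapped the third list. Their median distance of 199 kb was measured to antibody peaks of any score, including those left out of the windows. The distance to the antibody peaks with a score of at least 200 was not computed. Keeping the higher-scoring 50% of streptavidin peaks gave 1657 members, 5 per window, a median score of 89.7, a median width of 202 bases, 33.4% with a score of at least 100 and 13.3% within 10 kb; fewer peaks remain by construction. Taking instead all peaks at least 500 kb from an antibody centre gave 2966 members with a median distance of 718 kb, and no value per window could be had. Joining peaks within 1 kb gave 22.6% within 10 kb, since joined neighbours no longer count. No replicate could be left out and no paired analysis was possible because each group has 1 library. Depth is unknown, so antibody signal just under the authors' threshold in these windows cannot be measured here.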

Other observations

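Windows with no peak of either list were concentrated in a few stretches. The 34 such windows formed 16 stretches on 10 chromosomes, and 22 of the windows lay in 6 stretches of 3 or more. These were chr7:8000001-11000000, chr7:21000001-24000000, chr7:39000001-46000000, chr12:18000001-21000000, chr12:22000001-25000000 and chr14:42000001-45000000. Chromosome 7 had 14 of the 34 and chromosome 12 had 6. Only 1 window had an antibody peak and no streptavidin peak. No value for mappability or gene content was computed for these stretches.

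On chromosome X, which the rule leaves out, the same windows gave another picture in number but not in score. Of 162 windows 96 had no antibody peak (59.3%), and they held 246 of the chromosome's 647 streptavidin peaks (38.0%). The median was 2 per window and the highest count 11. The median score of the 246 peaks was 78.2 (quartiles 70.4 and 97.2), and 54 of them (22.0%, exact interval 16.9 to 27.7) reached 100, an interval that includes the 18.3% of the autosomal members. These values were computed after those of the autosomes were seen.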
